A study of Mus musculus with 6 samples.

Results

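The 7 genes described here encode the Fos and Jun subunits of AP-1: Fos, Fosb, Fosl1 and Fosl2 of the Fos family, and Jun, Junb and Jund of the Jun family. They were chosen by symbol and make up 7 of the 55377 genes listed. All 7 passed the filter on low counts. The cells were chondrocytes in primary culture from mouse articular cartilage, transfected with an siRNA against Irf1 (siIRF1, 3 libraries) or with a control siRNA (siNC, 3 libraries), and RNA was taken 36 h later. The protein of Irf1 is a transcription factor that interferons induce. Both groups passed through the same culture and transfection, and no untransfected group was analysed here. An siRNA lowers a transcript without removing it. Whether the 3 replicates of a group came from separate cultures or mice is not in the labels, and the p-values speak only of the spread among these 6 libraries, which may be technical.

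AP-1 is a family of dimers rather than 1 protein. Each subunit carries a basic region that touches DNA and a leucine zipper through which it pairs, and Fos proteins bind DNA only when paired with a Jun protein, whereas Jun proteins can also pair with each other. Fos, Fosb, Jun and Junb are immediate early genes, transcribed within minutes of serum, growth factors, cytokines or mechanical stress through MAP kinase signalling, and their transcripts are short-lived. Fosl1 (Fra-1) and Fosl2 (Fra-2) are induced later, and Jund is expressed steadily in many cells. In cartilage, AP-1 is known for driving collagenase and stromelysin genes in inflamed or loaded chondrocytes, and Fosl2 for supporting chondrocyte and osteoblast differentiation in mice.

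The promoters of Fos, Fosb and Jun are shown because Fos and Fosb had the most similar profiles of any pair of subunits across the libraries, given further on, and because Jun is the textbook case of an AP-1 gene whose own promoter holds an AP-1 site. The sequences are from RefSeq, build GRCm38.p6, from 250 bases before to 50 bases after the annotated start, 5′ to 3′ on the strand of the gene. They lie at chr12:85473640-85473939 on the plus strand for Fos, chr7:19309996-19310295 on the minus strand for Fosb and chr4:95052173-95052472 on the minus strand for Jun. Capitals mark matches to the motifs described after them.
Fos: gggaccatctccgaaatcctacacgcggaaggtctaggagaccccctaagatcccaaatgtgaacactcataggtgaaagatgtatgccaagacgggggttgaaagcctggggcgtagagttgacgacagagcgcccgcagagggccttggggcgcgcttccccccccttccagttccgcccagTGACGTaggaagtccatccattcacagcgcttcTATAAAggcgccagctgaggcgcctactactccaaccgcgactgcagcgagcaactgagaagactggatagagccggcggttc
Fosb: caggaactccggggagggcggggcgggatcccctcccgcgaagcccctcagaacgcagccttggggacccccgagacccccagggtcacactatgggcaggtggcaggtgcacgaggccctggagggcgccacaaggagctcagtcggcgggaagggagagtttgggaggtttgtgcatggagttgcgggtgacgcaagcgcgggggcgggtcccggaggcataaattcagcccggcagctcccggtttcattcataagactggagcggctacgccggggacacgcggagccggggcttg
Jun: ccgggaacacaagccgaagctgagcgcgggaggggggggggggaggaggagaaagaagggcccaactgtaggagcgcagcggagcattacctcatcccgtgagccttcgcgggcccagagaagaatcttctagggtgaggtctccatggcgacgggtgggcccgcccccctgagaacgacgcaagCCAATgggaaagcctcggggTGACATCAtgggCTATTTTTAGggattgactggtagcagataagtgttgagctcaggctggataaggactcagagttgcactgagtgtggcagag

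Motifs were searched on both strands. The first run of capitals in Fos is TGACGT, the core of a cyclic AMP response element, which 7.51% of 32851 mouse promoters of the same length held. The other is the TATA box, TATAAA, held by 13.6%. Fosb had no match. The capitals in Jun are, in order, a CCAAT box (held by 37.4%), the AP-1 site variant TGACATCA (3.62%) and a MEF2 site (0.557%). The common AP-1 site, TGANTCA, was present in 7.81% of promoters and in none of the 6 subunit genes with an entry. The full cyclic AMP response element, TGACGTCA, contains the core named above and was present in 1.79% of promoters and in none of the 6. Within this window the serum response element (CArG box) was present in 1.63% and in none of the 6, and an IRF site in 3.44% and in Fosl2 alone. Junb held a CCAAT box and the letters TATAAA, and Jund had no match. In Junb TATAAA covers bases 1 to 6 from the annotated start, whereas in Fos it lies at −33 to −28. These matches describe letters in a window of fixed length and no more. Sites more than 250 bases before the start, including any serum response element there, were not searched.

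Total counts were 22349142 to 26752065 in siIRF1 libraries and 28565096 to 29282494 in siNC libraries, so depth differed between the groups. Col2a1, the collagen that marks chondrocytes, held 6.21% to 8.15% of counts in siIRF1 libraries and 6.09% to 7.95% in siNC libraries. Of 9 chondrocyte markers, 1 fell (Hapln1) and 0 rose. Summed counts of the 5 macrophage markers came to 9.99 to 10.7 CPM (TMM-normalised read counts, scaled to a common library size) in siIRF1 and 7.52 to 9.79 CPM in siNC. Of these, Adgre1 and Itgam were at 0 throughout, Cd68 was higher in siIRF1 (9.001 ± 0.539 CPM, against 6.82 ± 1.11 CPM in siNC, edgeR adjusted p = 0.0316), and Lyz2 had 0.9751 ± 0.191 CPM in siIRF1 and 1.57 ± 0.251 CPM in siNC (adjusted p = 0.0566, SD, n = 3 each). The 3 endothelial markers summed to 0.799 to 1.04 CPM in siIRF1 and 0.856 to 1.32 CPM in siNC. Summed mural markers came to 1019 to 1136 CPM in siIRF1 and 1408 to 1567 CPM in siNC, with Acta2 lower in siIRF1. Acta2 and Cspg4 made up nearly all of this, and Rgs5 and Myh11 had at most 11 and 9 counts in any library. Osteoblast markers summed to 53.7 to 79.7 CPM in siIRF1 and 82.3 to 108.1 CPM in siNC, and fibroblast markers to 83.1 to 87.7 CPM and 78.1 to 92.7 CPM. Most of the osteoblast difference lay in Ibsp, with 45.3 ± 13.7 CPM in siIRF1 and 74.2 ± 14.7 CPM in siNC (edgeR adjusted p = 0.182). Sp7 had 23.6 CPM in siIRF1 and 23.8 CPM in siNC, and Bglap 0.439 CPM and 0.199 CPM. None of the 3 tested osteoblast markers passed. The part of all these marker sets in the results was not tested. Irf1 had 5.64, 5.09 and 6.02 CPM in siIRF1 libraries against 11.1, 12.6 and 12.2 CPM in siNC libraries (log2 fold change −1.10, SE 0.11, edgeR adjusted p = 3.0e-06), so each library lay on the side its label gives.

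None of the 7 subunits passed the threshold for siIRF1 against siNC, an adjusted p under 0.05 in edgeR's quasi-likelihood test (0 higher and 0 lower). Across all 14683 tested genes 22.4% did, 10.4% higher and 12.0% lower. At an unadjusted p under 0.05 the count was 1, Fosl2, with edgeR and 3 with DESeq2, where 0 passed after adjustment. The size of the differences was uneven. Fos and Fosb had the largest log2 fold changes, 0.74 and 0.68, but their siIRF1 libraries were far apart, while both late Fos genes, Jun and Jund stayed within 0.13 of zero. The median log2 fold change was 0.12 over the 7 subunits and 0.00 over all tested genes. The groups did not overlap for Fos, higher in siIRF1, or for Fosl2, lower in siIRF1, that is for 2 of 7, against 38.1% of all tested genes (18.6% higher and 19.5% lower).

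**Figure D1:**
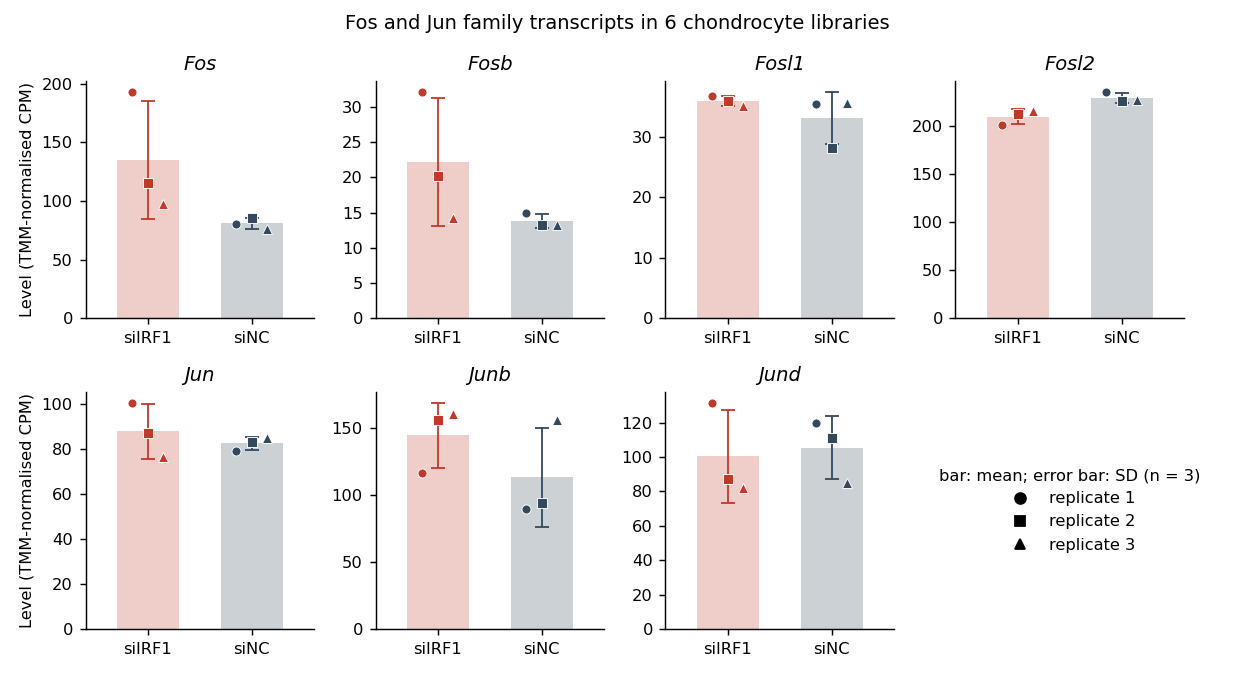
Level of each subunit in TMM-normalised CPM (vertical axes, from 0) in siIRF1 and siNC libraries, where points are single libraries, bars are means and error bars are SD (n = 3). For Fos and Fosb the siIRF1 libraries spread from 97.6 to 192.5 CPM and from 14.2 to 32.1 CPM, and for Junb the widest spread lies in siNC, from 89.9 to 156.0 CPM.

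Fos (ENSMUSG00000021250.14), the founding Fos subunit, had 192.5, 114.9 and 97.6 CPM in siIRF1 libraries 1, 2 and 3, against 80.3, 85.8 and 76.3 CPM in siNC libraries 1, 2 and 3. All siIRF1 libraries therefore lay above all siNC libraries, with library 1 well above the other two. The means were 135.0 ± 50.5 CPM in siIRF1 and 80.8 ± 4.76 CPM in siNC (SD, n = 3 each). Fos gave a log2 fold change of 0.74 (SE 0.29, 95% interval −0.04 to 1.52), with an edgeR adjusted p of 0.162. In bulk RNA, more transcript per cell and more cells that express a gene cannot be told apart. The spread in siIRF1, a coefficient of variation of 37.4%, was exceeded by 3.92% of tested genes, and that in siNC, 5.89%, by 56.9%.

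The call for Fos turned on siIRF1 replicate 1 and on how the test treats genes with unusual spread. Without that library the difference shrank to 0.40 on the log2 scale and passed (edgeR adjusted p = 0.00165). With the robust option off, which gives each gene the same prior weight, the full set passed as well (adjusted p = 0.00731), and over all 12 alternatives the adjusted p ran from 0.00165 to 0.340.

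Fosb (ENSMUSG00000003545.4), whose gene also yields a shorter splice form, ΔFosB, that gene-level counts cannot separate, followed Fos at a lower level. It had 32.1, 20.2 and 14.2 CPM in siIRF1 libraries, against 14.9, 13.3 and 13.2 CPM in siNC libraries. Here siIRF1 replicate 3 lay among the siNC libraries, so the groups overlapped. Fosb gave a log2 fold change of 0.68 (SE 0.32, 95% interval −0.15 to 1.505, edgeR adjusted p = 0.215). It was 0.33 without siIRF1 replicate 1 (adjusted p = 0.0891) and 0.91 without siIRF1 replicate 3, where it passed (adjusted p = 0.00704). With the robust option off it passed too (adjusted p = 0.0257), and over the 12 alternatives the adjusted p ran from 0.00704 to 0.423.

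The late Fos genes differed little between the groups. Fosl1 (ENSMUSG00000024912.7), which encodes Fra-1 and is known as an AP-1 target itself, had 36.8, 35.9 and 35.1 CPM in siIRF1 against 35.5, 28.2 and 35.7 CPM in siNC. The groups overlapped, and only siNC replicate 2 stood away from the rest. The log2 fold change was 0.12 (95% interval −0.06 to 0.30, edgeR adjusted p = 0.345), and 0.01 without siNC replicate 2.

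Fosl2 (ENSMUSG00000029135.11), which encodes Fra-2, had 200.4, 212.3 and 215.0 CPM in siIRF1 against 234.5, 225.1 and 226.6 CPM in siNC. It had the most counts of the 7 subunits in every library, and coefficients of variation of 3.70% in siIRF1 and 2.21% in siNC. All siIRF1 libraries were below all siNC libraries, by a log2 fold change of −0.13 (SE 0.05, 95% interval −0.24 to −0.01). The edgeR adjusted p was 0.107 and ran from 0.112 to 0.274 over the alternatives.

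Among the Jun genes, Jun (ENSMUSG00000052684.5), the main partner of Fos, had 100.5, 87.0 and 76.3 CPM in siIRF1 against 79.3, 83.3 and 84.9 CPM in siNC. The siIRF1 libraries lay on both sides of the controls, in the same order as for Fos, Fosb, Fosl1 and Jund. The log2 fold change was 0.09 (SE 0.08, 95% interval −0.08 to 0.26, edgeR adjusted p = 0.467), and it was −0.01 without siIRF1 replicate 1.

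Junb (ENSMUSG00000052837.8), a Jun protein that often restrains Jun and is itself an immediate early gene, had 116.8, 156.5 and 160.8 CPM in siIRF1 against 89.9, 94.4 and 156.0 CPM in siNC. The groups overlapped through siNC replicate 3, which was at the level of the upper siIRF1 libraries. Its log2 fold change was 0.35 (SE 0.28, 95% interval −0.40 to 1.10, edgeR adjusted p = 0.458). Without siNC replicate 3 it was 0.65 and passed (adjusted p = 0.0106), and over the 12 alternatives the adjusted p ran from 0.0106 to 0.701. In siNC the coefficient of variation of Junb, 32.6%, was exceeded by 5.65% of tested genes.

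Jund (ENSMUSG00000071076.9), which often opposes growth in fibroblasts, had 131.5, 87.3 and 82.3 CPM in siIRF1 against 120.1, 111.3 and 85.1 CPM in siNC. Each group held both high and low libraries. Its log2 fold change was −0.07 (SE 0.24, 95% interval −0.71 to 0.56, edgeR adjusted p = 0.870), and its sign turned in 3 of the 12 alternatives. The intervals of Junb and Jund both reach well to either side of zero. That of Junb includes the value seen for Fos, and that of Jund ends below it. Fosl1, Jun, Junb and Jund each overlap a gene on the opposite strand, and whether the counting used strand is unknown here, so shared reads cannot be told apart.

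**Figure D2:**
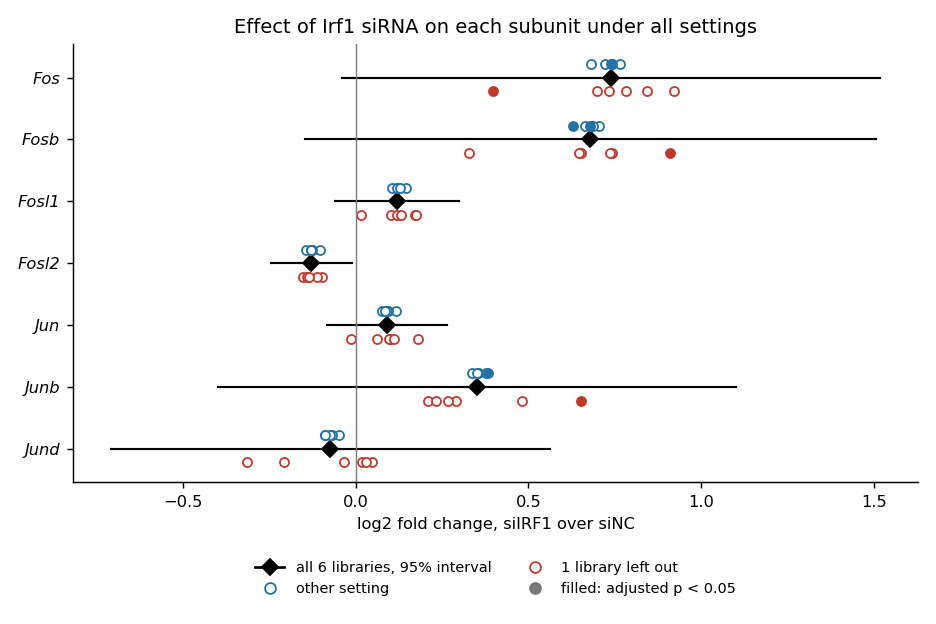
The log2 fold change of siIRF1 over siNC (horizontal axis) for each subunit, with its 95% interval, and the values under the other settings and with 1 library left out. Filled points passed an adjusted p of 0.05: they occur for Fos, Fosb and Junb, while the values of Fosl2 all lie below zero without passing.

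Levels can be compared between genes only per length, so CPM were divided by the length of the longest coding transcript of each gene (GENCODE M21). In siIRF1, Junb averaged 80.0 ± 13.4 CPM per kilobase, followed by Fos at 64.1 ± 24.0, Jund at 60.2 ± 16.2, Fosl2 at 32.0 ± 1.19, Jun at 27.6 ± 3.81, Fosl1 at 19.3 ± 0.467 and Fosb at 5.87 ± 2.41 (SD, n = 3). The first 3 of these overlapped one another, as did Fosl2 and Jun, and the other neighbours were separated. In siNC the order was Jund at 63.3 ± 10.9 CPM per kilobase, Junb at 62.7 ± 20.4, Fos at 38.3 ± 2.26, Fosl2 at 34.99 ± 0.773, Jun at 25.9 ± 0.905, Fosl1 at 17.8 ± 2.30 and Fosb at 3.65 ± 0.254. Jund and Junb did not differ beyond their spread there, and every later neighbour in that order was separated in the 3 libraries. With all annotated exons counted as length, Jun came before Fosl2 in both groups and Jund before Fos in siIRF1.

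The make-up of the AP-1 transcript pool follows from these levels. Fos held 28.1%, 19.6% and 17.6% of the 7 subunits' summed level per kilobase in siIRF1 libraries, against 15.6%, 17.0% and 14.1% in siNC libraries. Fosl2 held 9.43%, 11.7% and 12.5% in siIRF1, against 14.7%, 14.4% and 13.5% in siNC. Neither share overlapped between the groups, nor did that of Jun, with 9.69%, 9.82% and 9.06% in siIRF1 against 10.2%, 10.9% and 10.4% in siNC. The shares of a library add up to the whole, so a larger share of 1 subunit lowers those of others. For single genes, the CPM of 38.1% of all tested genes did not overlap between the groups. The Jun family exceeded the Fos family in every library, by 1.16, 1.49 and 1.59 times in siIRF1 and by 1.51, 1.55 and 1.75 times in siNC. The sum of the 7 levels was 325.1, 277.8 and 263.9 CPM per kilobase in siIRF1 against 243.5, 238.7 and 257.4 in siNC, so it too did not overlap. In CPM not divided by length the sums were 810.7, 714.1 and 681.3 in siIRF1 against 654.4, 641.3 and 677.9 in siNC, with the lowest siIRF1 library just above the highest siNC library. These shares and sums are given as descriptions, with no test.

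**Figure D3:**
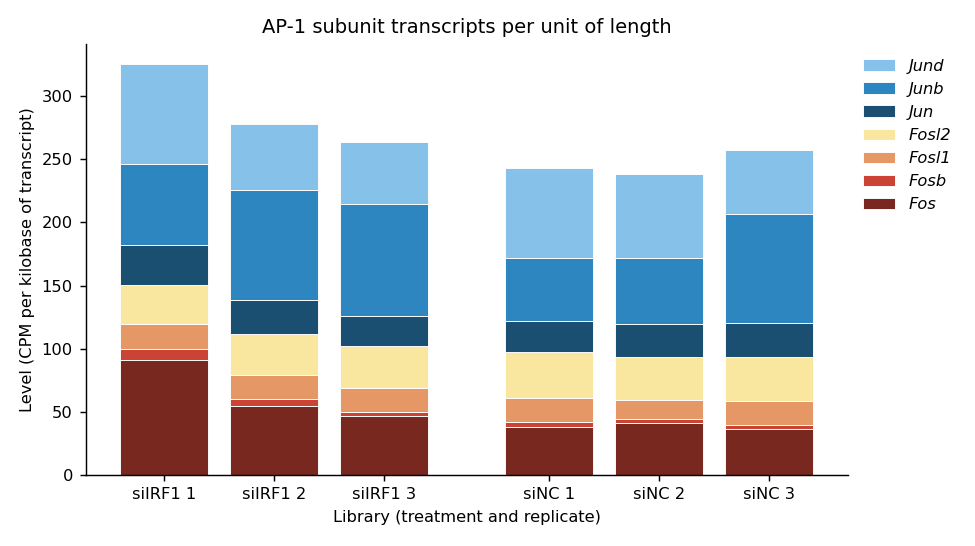
Level of each subunit in CPM per kilobase of transcript (vertical axis), stacked for each library, with siIRF1 on the left and siNC on the right. The dark red Fos block at the bottom is tallest in siIRF1 replicate 1, and the Junb block is about as tall in siNC replicate 3 as in siIRF1 replicates 2 and 3.

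How alike 2 genes were was measured as the root mean square difference of their log2 CPM over the 6 libraries, each centred on its own mean, among the 10084 genes that averaged 5 CPM or more. The nearest gene to Fos was Fosb and the nearest to Fosb was Fos, at a difference of 0.12. For both, the next was Ier2, another immediate early gene, at 0.16 from Fos and 0.18 from Fosb. Ier2 had 78.3, 55.9 and 50.6 CPM in siIRF1 against 46.9, 44.2 and 40.2 CPM in siNC, so it also peaked in siIRF1 replicate 1 (log2 fold change 0.49, edgeR adjusted p = 0.0733). For the other subunits the nearest genes were not AP-1 subunits: Slc25a14 and Snrpf for Fosl1 (0.03 and 0.04), Asxl1 for Fosl2 (0.01), Chic1 and Ttc23 for Jun (0.04 and 0.04), Dusp9 and Gas7 for Junb (0.11 and 0.12), and Socs1 and Acaa1a for Jund (0.06 and 0.06). Genes that vary little lie close to many others by this measure, so its values cannot be ranked between subunits. For instance, 4107 genes were nearer to Fosl1 than Jun was, at 0.16. A nearest gene is the closest of many and need not share regulation.

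Junb and Jund were the least alike of any pair of subunits (0.59). Junb divided by Jund was 0.89, 1.79 and 1.96 in siIRF1 libraries and 0.75, 0.85 and 1.83 in siNC libraries, so siIRF1 replicate 1 resembled siNC replicates 1 and 2, and siNC replicate 3 resembled siIRF1 replicates 2 and 3. The 3 libraries with the most Jund were also the 3 with the most Col2a1 and Col11a2, both cartilage collagen genes, though siIRF1 replicate 3, lowest in Jund, was not lowest in either. Among the other chondrocyte markers, Col9a1, Matn3 and Cnmd were highest in the same 3 libraries, whereas Acan, Sox9, Comp and Hapln1 were not. Acan had 9626, 7879 and 9469 CPM in siIRF1 and 9817, 8822 and 7492 CPM in siNC. Col2a1 had 82180, 60370 and 72580 CPM in siIRF1 and 81460, 74940 and 60190 CPM in siNC, and Col11a2 had 6511, 4303 and 5535 CPM in siIRF1 and 6668, 5918 and 4926 CPM in siNC. The part of this split in the results for Junb and Jund was not tested.

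**Figure D4:**
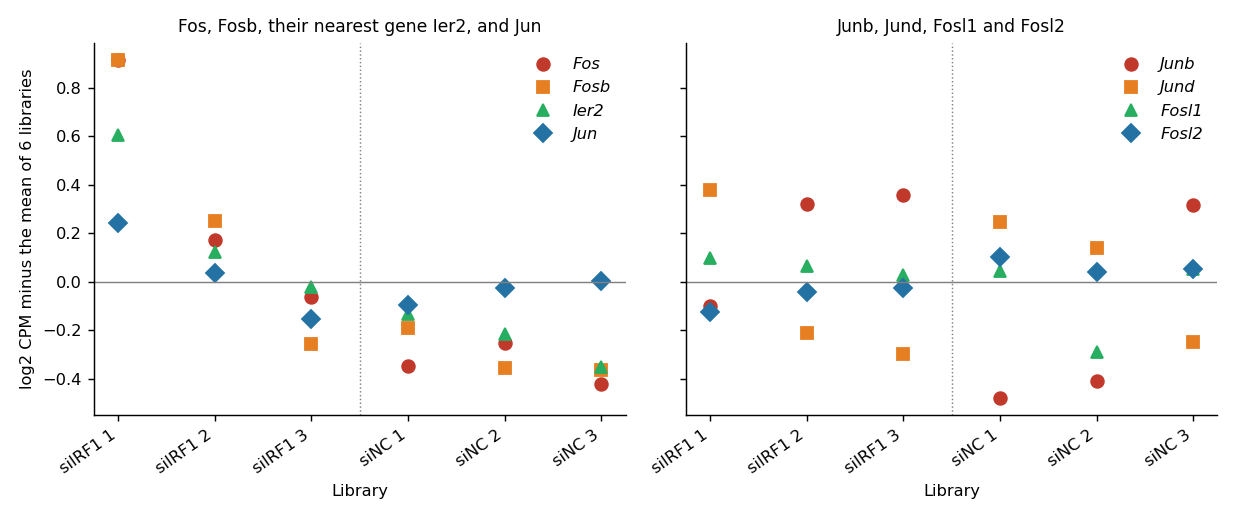
Log2 CPM of each gene minus its mean over the 6 libraries (vertical axis), by library. On the left Fos and Fosb coincide in siIRF1 replicate 1 at 0.91, with Ier2 and Jun also highest there. On the right Junb and Jund lie on opposite sides of zero in every library.

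Other immediate early genes are induced by the same stimuli as Fos and Fosb. Of 21 tested, 8 rose and 2 fell (against 10.4% and 12.0% of all tested genes), with a median log2 fold change of 0.38. Klf4 and Egr1, transcription factors induced with Fos, rose by 0.43 (edgeR adjusted p = 0.00147) and 0.45 (adjusted p = 0.00305). Rhob, a small GTPase, rose by 0.45 (adjusted p = 0.00267) and Arc by 0.81 (adjusted p = 0.00335). Nr4a1, an orphan nuclear receptor named here after its values were seen, had 33.9, 21.4 and 21.2 CPM in siIRF1 against 14.4, 11.2 and 11.7 CPM in siNC (log2 fold change 1.03, adjusted p = 0.0120). The genes that fell were Ccn1 and Ier3. Without siIRF1 replicate 1, 9 rose and 2 fell, and without any one of the other 5 libraries 1 fell. That library held the highest level of 12 of the 21 genes and of 5 of the 7 subunits, against 20.9% of all tested genes.

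Of 20 tested genes of the MAP kinase cascade, which relays signals to AP-1, 2 rose and 5 fell (median log2 fold change −0.01), against 10.4% higher and 12.0% lower over all tested genes. The share that rose was near that of all genes, and 1 rose without siIRF1 replicate 1, siIRF1 replicate 3 or siNC replicate 1. Map2k4, which activates JNK, fell to 40.5 ± 2.69 CPM in siIRF1, against 59.4 ± 1.59 CPM in siNC (SD, n = 3; log2 fold change −0.55, edgeR adjusted p = 1.7e-05), and Map3k7, which encodes TAK1, dropped by 0.43 in log2 CPM (adjusted p = 1.1e-04), as did Braf by 0.28 (adjusted p = 0.00587). Map2k3, which activates p38, rose by 0.35 (adjusted p = 7.4e-04). The others past the threshold were Mapk14, higher, and Map3k1 and Mapk7, lower. Among the 10 factors that act on the Fos and Jun promoters 1 rose and 2 fell, with a median of −0.01, against 10.4% higher and 12.0% lower over all tested genes. Here too the share that rose was near that of all genes, and the share that fell rests on 2 genes. Elk1 rose by 0.37 (adjusted p = 0.00111), whereas Elk4 fell by 0.37 (adjusted p = 9.1e-04) and Mrtfb by 0.27 (adjusted p = 0.00973). Srf, the serum response factor, had 35.04 ± 3.71 CPM in siIRF1 and 40.4 ± 1.25 CPM in siNC (adjusted p = 0.0605).

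MAP kinase phosphatases switch these kinases off and are induced by them. A chosen list of them, not the whole family, gave 4 rises and 0 falls among 9 tested genes (10.4% and 12.0% of all tested genes). The median log2 fold change of the list was 0.16. Dusp9, named above for Junb, was not in the list (log2 fold change 0.29, edgeR adjusted p = 0.212). Dusp6, an ERK phosphatase, had 46.6, 43.4 and 39.3 CPM in siIRF1 against 26.8, 26.95 and 30.6 CPM in siNC, a rise of 0.61 (SE 0.08, edgeR adjusted p = 4.2e-05). Dusp5 rose by 0.32 (adjusted p = 0.0143), Dusp4 by 0.76 at a low level, 2.25 ± 0.129 CPM in siIRF1 and 1.32 ± 0.313 CPM in siNC (adjusted p = 0.0194), and Dusp7 by 0.23 (adjusted p = 0.0317). The number of rises was 2 without siIRF1 replicate 1 or 3, and 1 without siNC replicate 1. Dusp6 held its call in each of the 12 alternatives, whereas Dusp7 lost it in 7, Dusp4 in 3 and Dusp5 in 1.

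Of 16 tested bZIP genes that pair with Jun or Fos or share their sites, 2 rose and 3 fell (median log2 fold change −0.03), against 10.4% and 12.0% of all tested genes. The share that rose was near that of all genes, and the share that fell rests on 3 genes. Atf2, a partner of Jun, fell to 25.6 ± 1.53 CPM in siIRF1, against 36.1 ± 1.57 CPM in siNC (SD, n = 3; log2 fold change −0.49, edgeR adjusted p = 1.3e-04), and Atf3, a stress-induced partner, rose by 0.33 (adjusted p = 0.0120). Mafk rose by 0.22 (adjusted p = 0.0370), and Bach2 fell by 0.61 at a low level (adjusted p = 0.0310). The other gene that fell was Atf7. Mafk and Bach2 lost their calls in 7 and 4 of the 12 alternatives. The count of rises was 1 when any single library but siIRF1 replicate 3 was left out, and that of falls was 1 without siIRF1 replicate 3 or siNC replicate 2. None of the 7 protein-level regulators of Jun passed (0 rose and 0 fell in edgeR, and likewise in DESeq2, and 0 had an unadjusted p under 0.05), with a median log2 fold change of 0.05. The 4 with the smallest adjusted p were Itch (0.148), Fbxw7 (0.176), Men1 (0.192) and Cop1 (0.368). Itch and Fbxw7 passed without siIRF1 replicate 1 (0.0420 and 0.0455).

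Of 20 tested genes known as AP-1 targets, 5 rose and 3 fell, against 10.4% and 12.0% of all tested genes, with a median log2 fold change of 0.09. The share that fell was near that of all genes. The other 12 did not pass. Mmp3, which encodes stromelysin-1, had 67.5, 51.8 and 53.6 CPM in siIRF1 against 43.3, 33.3 and 36.3 CPM in siNC, a rise of 0.61 (SE 0.12, edgeR adjusted p = 0.00366). The collagenase gene Mmp13 had 300.4, 473.6 and 443.8 CPM in siIRF1 against 328.7, 369.7 and 444.2 CPM in siNC. Its log2 fold change was 0.09 (edgeR adjusted p = 0.808). Spp1, which encodes osteopontin, rose by 0.60 (adjusted p = 2.1e-05) and the metallothionein gene Mt2 by 0.46 (adjusted p = 1.2e-04). Hbegf and Ccnd1 were also past the threshold and higher, and Plaur and Vegfa past it and lower. Each of these genes also answers to other factors. Without siIRF1 replicate 2, or without siNC replicate 1 or 2, 3 rose.

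**Figure D5:**
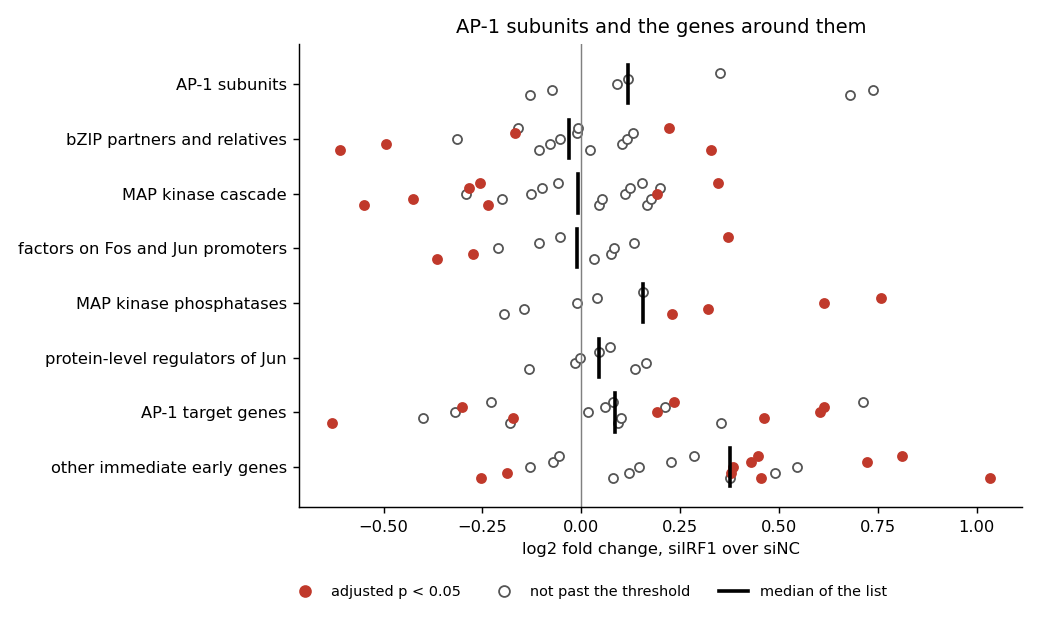
Log2 fold change of siIRF1 over siNC (horizontal axis) of each tested gene, by list, with filled points past an adjusted p of 0.05 and a bar at the median. The subunits have no filled point, while 8 filled points lie right of zero among the other immediate early genes and 4 among the MAP kinase phosphatases.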

How the data were processed

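RNA-seq libraries of polyadenylated RNA were made with a stranded kit, per the labels' protocols. The submitters' processing notes name Trimmomatic 0.39, FastQC, STAR and the build GRCm39 (mm39). How reads were assigned to genes, the annotation release and the strand setting were not given in the sources used here. The authors deposited raw read counts per gene, 1 table per library. Within each group, every pair of libraries differed beyond counting error (chi-square per degree of freedom from 5.76 to 16.6), so each was kept as its own sample.

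The tests used edgeR 4.0.16 in R 4.3.3: filterByExpr by group (14683 genes kept), TMM scaling and the two-sided quasi-likelihood F test with the robust option, fitted to all 6 libraries with no covariate. Adjusted p-values are Benjamini-Hochberg over the tested genes. Standard errors were derived from the log2 fold change and its F value, and 95% intervals from the degrees of freedom of the test. The scripts were tested on simulated data with the same spread setting for every gene. That test does not cover genes whose libraries differ as widely as those of Fos, Fosb, Junb and Jund. Alternatives were other scalings, no filter, DESeq2 1.42.0, no robust option, a replicate block and each library left out. Another transcript length was added after seeing the data.

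The members and lists were chosen with earlier results of these data known. Named genes were Irf1, the 7 subunits, the 4 genes per list with the smallest adjusted p, and the 2 nearest genes per subunit. Some genes that this rule names are not reported here. Other genes past the threshold in a list, the markers named, Mmp13 and Nr4a1 fall outside it and were chosen after their values were seen. Lengths, 3′ UTRs and overlaps came from GENCODE M21 by gene identifier. Its build, GRCm38, differs from the authors', and no coordinate was converted.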

Additional observations from a re-analysis of the deposited data

How the results depend on the processing

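The log2 fold changes of Fos, Fosb, Fosl1, Fosl2 and Junb kept their sign in all 12 alternatives. With 1 library left out they ran from 0.40 to 0.92 for Fos, 0.33 to 0.91 for Fosb, 0.01 to 0.17 for Fosl1, −0.15 to −0.10 for Fosl2 and 0.21 to 0.65 for Junb. Those of Jun ran from −0.01 to 0.18, negative only without siIRF1 replicate 1 (−0.015). Those of Jund ran from −0.31 to 0.05, and were positive without siIRF1 replicate 2 (0.02), without siIRF1 replicate 3 (0.0465) and without siNC replicate 1 (0.03). Subunits past the threshold numbered 0 to 1 higher with 1 library left out and 2 with the robust option off, where Fos (0.74) and Fosb (0.68) passed. The causes of these changes were not tested. The replicate numbers are shared by the groups. Deviations of same-numbered libraries from their group means had correlations of 0.20, −0.04 and 0.05 for numbers 1, 2 and 3. Only number 1 had its best match in its own number on both sides. With 3 libraries per group, these values cannot decide whether the libraries were paired by number. With the replicate block 1744 genes were higher and 1984 lower, against 1522 and 1767 without it, and 2 subunits were higher, Fosb (0.63, adjusted p = 0.0229) and Junb (0.38, adjusted p = 0.0218), and Fos gave an adjusted p of 0.215.

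Over all genes, the number higher ran from 959 (without siIRF1 replicate 3) and 980 (without siNC replicate 2) to 1398 with 1 library left out. Rises among bZIP genes numbered 1 with no filter and with DESeq2, and those in the MAP kinase cascade 1 with no filter. Falls among other immediate early genes numbered 1 with upper-quartile scaling and with DESeq2. With 1 library left out, the counts ran from 1 to 2 for rises and for falls of bZIP genes, 1 to 3 for rises in the cascade, 1 to 4 for phosphatases, 0 to 2 for Jun regulators, 3 to 5 for rises of targets, and 1 to 2 for falls of immediate early genes. No scaling moved the median log2 fold change of all genes beyond 0.03. The number of libraries and the spread of Fos, Fosb, Junb and Jund limit what can be detected for them. Each library held at least 333 counts of every subunit.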

Other observations

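Rapid decay of Fos-type transcripts is known to depend on AU-rich elements in the 3′ UTR, built from the word ATTTA. Every subunit held at least 1 ATTTA in the 3′ UTR of its longest coding transcript, as did 70.8% of 12677 tested genes with a 3′ UTR of at least 50 bases. Jun and Fos held 4 each and Fosl2 held 8, in 3′ UTRs of 1236, 818 and 4656 bases. The longer word TTATTTATT was present in 8.41% of tested genes and in 2 subunits, Fos and Fosl2, whose surrounding 30 bases are shown with the ATTTA words in capitals, to set the element of a subunit with large differences between libraries beside that of one with small differences.
Fos: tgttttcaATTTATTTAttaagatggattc
Fosl2: ATTTAttttattATTTAttttaaatgttta

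Genes that overlap a subunit on the opposite strand could share its reads if the counting ignored strand. Prdx2, which overlaps Junb, had 109.1, 102.0 and 104.7 CPM in siIRF1 and 108.2, 105.9 and 107.4 CPM in siNC. Junos, which overlaps Jun, had 1.45, 1.598 and 1.37 CPM in siIRF1 and 1.32, 1.03 and 0.878 CPM in siNC. Gm11175, which overlaps Jund, had 1.99, 0.617 and 0.726 CPM in siIRF1 and 0.713, 0.709 and 0.641 CPM in siNC. Ccdc85b, which overlaps Fosl1, had 17.0, 11.0 and 10.3 CPM in siIRF1 and 15.9, 13.7 and 13.5 CPM in siNC.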
